A study of Mus musculus with 98 samples.

Results

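The 10 genes described here encode 8 laminin chains and both nidogens of the mouse thymic stroma: the α chain genes Lama2, Lama3, Lama4 and Lama5, the β chain genes Lamb1, Lamb2 and Lamb3, the γ chain gene Lamc1, and Nid1 and Nid2. They were taken by name, with earlier results of these data known, and all 10 were found among the 22231 genes of the age series, the 20760 genes of the newborn series and the 39179 genes of the bulk libraries. The age series held single cells sorted as Ter119-CD45-EpCAM- from wild-type C57BL/6 mice, with 1 library each at E12.5 and E13.5, from thymi pooled over litters, and 2 libraries each at E16.5, at birth (P0) and at 4 weeks (W4). Its 36208 labelled cells carried 19 subtype names. The newborn series held Ter119-CD45- cells of P0 mice, epithelium included, with 3 libraries from mice heterozygous for both Tbx1 (a LacZ allele) and Crkl (a null allele), written Tbx1+/-Crkl+/-, and 3 from wild-type littermates; its 21451 cells carried 29 labels. The bulk libraries came from sorted wild-type populations, 6 libraries a population and age: CD31+ endothelium, Ly51+gp38-, gp38+CD26- and gp38+CD26+ nonepithelial cells, cortical thymic epithelial cells (cTEC) and medullary ones (mTEC) at P0 and W4, and mTEChi and mTEClo at W4 alone. The gate on EpCAM leaves epithelium out of the age series, so epithelial levels come from the other data alone.

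Laminins are secreted trimers of 1 α, 1 β and 1 γ chain that assemble into the sheet on which epithelium, endothelium, smooth muscle and nerve sheaths rest, and cells bind them through integrins, dystroglycan and other receptors. Lama2 is the α chain best known from muscle and mesenchyme. Lama4 and Lama5 are the α chains of vessel walls, with Lama5 also in many epithelia. Lama3 and Lamb3 are the α and β chains best known from epithelia, where they help to anchor basal cells. Lamb1 and Lamb2 are alternative β chains, and Lamb2 is known from mature vessel walls, the kidney filter and the neuromuscular junction. Lamc1 is shared by most trimers. The nidogens Nid1 and Nid2 bridge the laminin γ1 chain to collagen IV.

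The genes, Lama3 left out, lie apart in the genome (GENCODE M21, GRCm38): Lama2 at chr10:26980036-27619758, Lama4 at chr10:38965515-39110188, Lama5 at chr2:180176373-180225859, Lamb1 at chr12:31265234-31329644, Lamb2 at chr9:108479736-108490530, Lamb3 at chr1:193207699-193343878, Lamc1 at chr1:153218922-153332786, Nid1 at chr13:13437551-13512269 and Nid2 at chr14:19751265-19811787. Their exons together span from 5.17 kb for Nid2 to 16.3 kb for Lama2, a range that matters for bulk reads, so levels are compared between genes only per kb of exon there. Single-cell counts are unique molecular identifiers (UMIs) at transcript 3′ ends and are compared within a gene.

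The promoters of 3 genes are shown because, in bulk Ly51+gp38- cells, Lama5 and Lamb2 rose with age while Lamb1 fell. A link between promoter sequence and these changes was not tested. They are RefSeq sequence of GRCm38.p6 upstream of the annotated gene start, 5′ to 3′ on the gene's strand, with capitals marking each GC box (GGGCGG, or CCGCCC on the other strand); Lama5 is at chr2:180225860-180226109 (minus strand), Lamb1 at chr12:31265043-31265233 (plus strand) and Lamb2 at chr9:108479612-108479735 (plus strand).
Lama5: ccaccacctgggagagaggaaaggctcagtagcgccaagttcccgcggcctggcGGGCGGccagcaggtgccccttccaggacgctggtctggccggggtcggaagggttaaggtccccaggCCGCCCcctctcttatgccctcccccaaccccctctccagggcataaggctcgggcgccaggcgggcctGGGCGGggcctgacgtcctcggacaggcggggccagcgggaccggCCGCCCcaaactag
Lamb1: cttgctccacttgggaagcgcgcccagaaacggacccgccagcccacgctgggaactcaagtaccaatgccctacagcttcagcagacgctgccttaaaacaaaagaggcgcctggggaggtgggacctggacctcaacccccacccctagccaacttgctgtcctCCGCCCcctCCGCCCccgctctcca
Lamb2: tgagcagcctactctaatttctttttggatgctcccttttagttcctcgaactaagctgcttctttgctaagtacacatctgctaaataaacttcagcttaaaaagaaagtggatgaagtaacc
The Lama5 window of 250 bases held 4 GC boxes and 19 CpG. The shorter Lamb1 window held 2 GC boxes and 10 CpG. The Lamb2 window, the shortest, held 0 GC boxes and 1 CpG. A GC box lay in 32.7% of 32851 promoter windows of 250 bases, so the windows shown are shorter than that background for Lamb1 and Lamb2. Of the 10 genes, 6 matched the promoter table, and Nid2, Lama3, Lama4 and Lamc1 did not. A match is a description of these letters, not a bound site.

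The names of the broad cell classes were checked against markers. Mean Pecam1 over libraries was 915 to 1175 UMIs as counts per 1e+06 (CPM) in the endothelial subtypes EnA, EnC and EnVL and at most 43.4 in any other subtype, where it was found in the neural crest cells NC. Acta2, a smooth muscle actin, reached 7420 CPM in vascular smooth muscle (VSM), Kcnj8 reached 1001 CPM in pericytes (Pc), Upk3b reached 1562 CPM in mesothelium (Mes) and Sox10 reached 240 CPM in NC. Pdgfra, a fibroblast receptor, averaged 119.9 to 332.5 CPM in the 11 fibroblast subtypes and 138.9 CPM in the proliferating cells Pr, and at most 23.3 CPM elsewhere, and Mki67 reached 355 CPM in Pr. The markers used do not tell the fibroblast subtypes apart, so those names are the deposited ones. The exception was the newborn label nTEC, which held 2451 CPM of the fibroblast gene Dcn and 1773 CPM of Col1a1 beside 221 CPM of Epcam. The 10 genes took 0.0418% of all UMIs at E12.5, 0.116% in both E16.5 libraries, 0.136% and 0.154% at P0 and 0.224% and 0.227% at W4.

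Each gene had its own distribution over the subtypes, given here as a mean over libraries with at least 5 cells of the subtype. No test was made, since the subtypes were drawn from the same counts. MedFb2b had 0 cells at E12.5 and 3 at E13.5, so its means leave these ages out. Those of Mes leave out E16.5 replicate 1, with 2 cells. In MedFb1b the β chain sum went from 106.9 CPM at E12.5 to 700.1 at W4. The rank of MedFb2b among the subtypes is thus not matched for age. Lama2 stood first in CapFb1a, a capsular fibroblast subtype (270 CPM), and Nid1 (1458 CPM) and Lamc1 (247 CPM) in CapFb4. Nid2 stood first in CapFb1b (309 CPM) and Lamb1 in the medullary fibroblast subtype MedFb1b (313 CPM). Lama4 stood first in NC (305 CPM), which at W4 rested on 7 cells a library. Lama5 and Lamb2 led in EnA and VSM, which lay side by side: 57.3 against 56.96 CPM for Lama5, and 149.2 against 145.5 CPM for Lamb2. Lama3 reached 26.5 CPM in EnA, and Lamb3 5.60 CPM in Mes, both from few UMIs. When UMIs were summed over all libraries, VSM led for Lama5 and Lamb2 and CapFb1c for Lama2. Without W4 replicate 1 or 2, MedFb2b led for Lamc1, and MedFb2b or NC for Lamb1. Over all alternatives run, the first subtype held for Lama3, Lama4, Nid1 and Nid2.

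**Figure D1:**
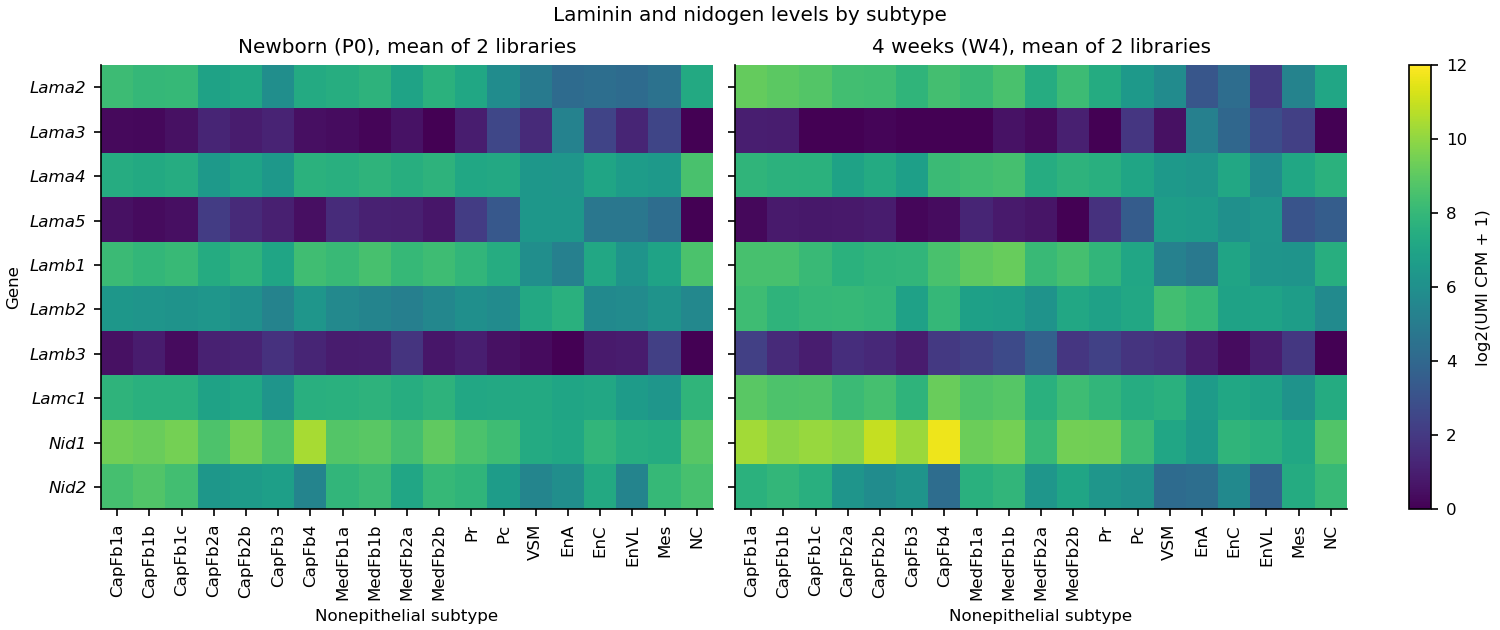
Level of the 10 genes in the 19 subtypes of the age series at P0 and W4, as log2(UMI CPM + 1), the mean of 2 libraries in each tile. Nid1 is brightest in CapFb4, Lama5 is bright in EnA, EnC, EnVL and VSM and near 0 in fibroblasts, and Lamb2 brightens and Nid2 dims from P0 to W4 across most columns.

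Within the vessel wall the α chains sorted by cell type. At P0 Lama5 was at 72.6 and 86.6 CPM in VSM and at 65.3 and 98.2 CPM in EnA, at 23.5 and 29.2 CPM in capillary EnC, and at 13.04 and 4.90 CPM in Pc. In all 11 fibroblast subtypes it stayed at 3.82 CPM or below in both P0 libraries. Lama5 was not confined to vessels. With cells thinned to 2000 UMIs, it was found in 3.53% of Mes cells, beside 4.50% in EnC and 11.6% in VSM. In the newborn series it was found in 5.89% of perinatal cortical epithelium (PcTEC), beside 6.08% in EnC, 19.7% in VSM and 2.84% in thymocytes. Lama4 was spread far more evenly, at 77.4 and 86.1 CPM in VSM, 162 and 140 CPM in Pc and 138 and 126 CPM in EnC, all within the range of the fibroblasts. Lama2 was at 284 and 322 CPM in CapFb1a, at 46.3 and 66.98 CPM in Pc and at 17.6 and 21.3 CPM in EnC. Over the 19 subtypes, the genes most like Lama5 in log2 level were Cav1 (r = 0.944), the caveolin of endothelium and smooth muscle, and Rab11b (r = 0.942). Those most like Lama2 were Entpd2 (r = 0.978) and S1pr2 (r = 0.965). For Lamb1 they were Itih5 (r = 0.939) and Fmnl2 (r = 0.916), for Nid1 Trio (r = 0.943) and Reck (r = 0.937), and for Nid2 Lrrn3 (r = 0.841) and Plscr4 (r = 0.827). Lama4 was most like another laminin gene, Lamb1 (r = 0.846). Lamb2 had no close partner, with Slc8a1 at r = 0.795. These are descriptions over subtypes that share libraries.

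From P0 to W4 most of the laminin genes and Nid1 were higher, and Nid2 lower, in the fibroblast subtypes. UMIs were summed for each library and subtype and tested with edgeR's quasi-likelihood test, with Benjamini-Hochberg adjustment over all genes; every adjusted p below is of this kind, and a gene was called under 0.05. In the 11 fibroblast subtypes 66 of 81 tests of the 10 genes were called, 56 up and 10 down, where 35.0% of all gene tests were called. In the endothelial subtypes the count was 10 of 25, beside 17.4% of all tests, in Pc and VSM 8 of 17, beside 30.2%, and in proliferating cells (Pr) 3 of 9, beside 11.9%. The sources used here name 2 thymi at each of these ages but do not tie a library to a thymus, so p-values measure the spread between these libraries. Each of these ages had 2 libraries, and barcodes found in more than 1 library amounted to 0.428% of the cells. The paper's methods describe bead depletion of CD45+ cells for digests of adult thymus, and each age had its own libraries. Age therefore cannot be told apart from preparation or library batch, in single cells or in bulk.

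Lamb2 was the most general riser. In VSM it was at 18.3 CPM at E12.5, 24.9 at E13.5, 80.6 and 71.2 at E16.5, 148.4 and 152 at P0 and 344 and 325 at W4. The W4 libraries lay above both P0 libraries, which lay above both E16.5 libraries. In CapFb1a it was at 64.4 and 68.4 CPM at E16.5, 76.4 and 85.3 at P0 and 311 and 305 at W4, so most of the rise fell after birth. From P0 to W4 it rose in 16 of 17 subtypes tested, with a median log2 fold change of 1.30 over the 17, by 1.997 (SE 0.107, adjusted p = 4.85e-09) in CapFb1a and by 1.09 (SE 0.099, adjusted p = 0.000339) in VSM. The subtype not called was EnA, at 0.35 (SE 0.22, adjusted p = 0.351), where the P0 libraries were already at 166.7 and 219 CPM and the W4 libraries at 258 and 271.

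From P0 to W4 Lamb1, the other broad β chain, was called up in fibroblasts alone. In MedFb1b it was at 208 and 212 CPM at E16.5, 327 and 398 at P0 and 597 and 582 at W4, with no overlap between neighbouring ages. It rose from P0 to W4 in 6 of 11 fibroblast subtypes, by 0.67 (SE 0.088, adjusted p = 1.96e-05) in MedFb1b and by 0.80 (SE 0.095, adjusted p = 3.95e-06) in MedFb1a. In Pc it was at 159 and 183 CPM at P0 and at 156.3 and 118.8 at W4, a fall of 0.51 on the log2 scale (SE 0.123, adjusted p = 0.00796). Its estimates in VSM and all 3 endothelial subtypes were below 0 and not called. As a result the share of Lamb2 among the UMIs of both genes moved from a mean of 24.0% to 51.6% in Pc and from 25.4% to 48.6% in EnC. In VSM it moved from 71.6% ± 3.16 to 90.1% ± 5.83 (SD, n = 2 libraries an age), and in MedFb1b from 10.2% to 15.1%. These shares rest on 3′ UMIs, whose capture can differ between the genes.

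**Figure D2:**
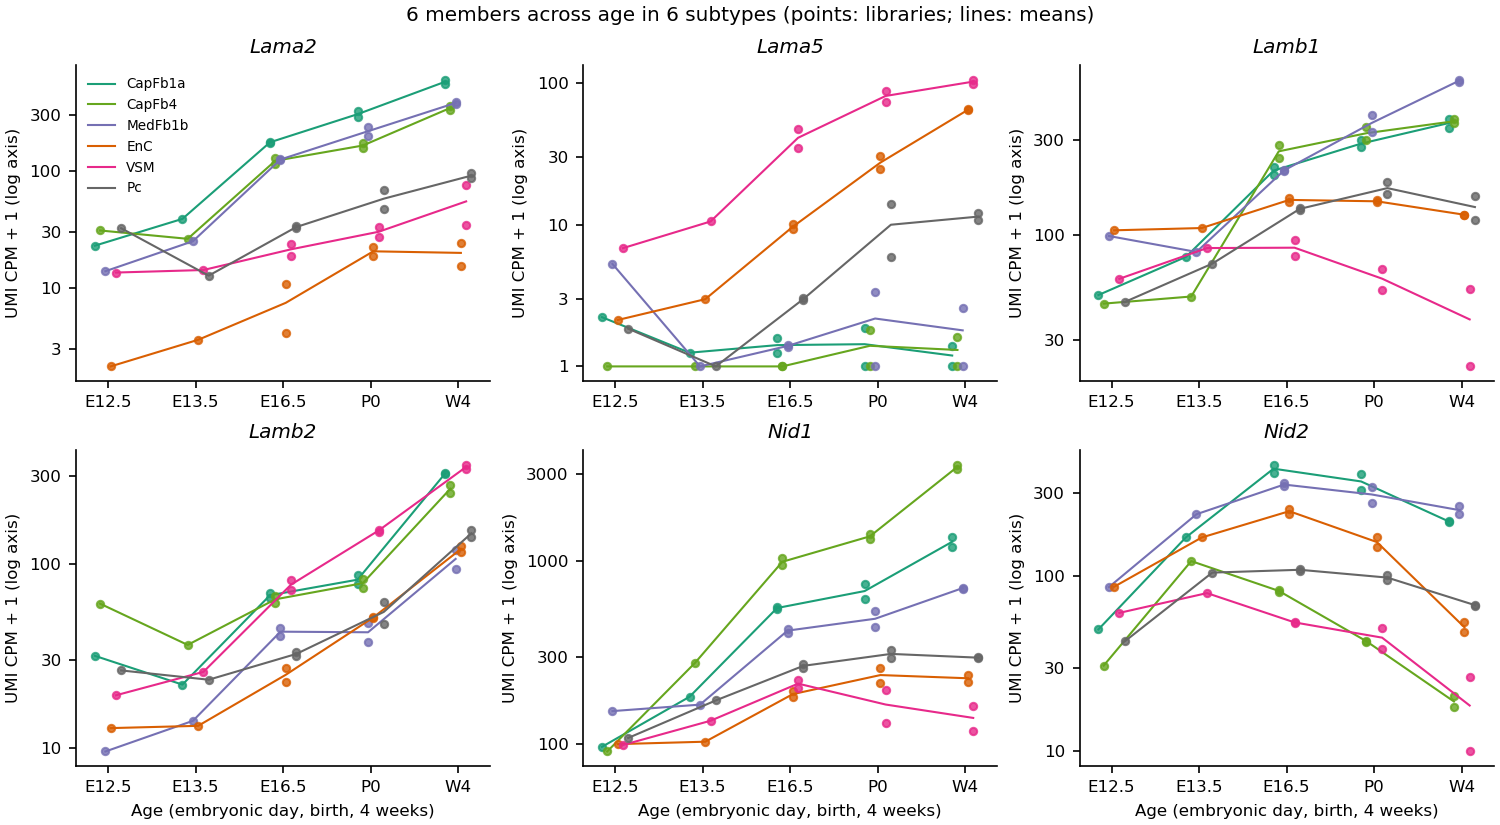
Level of Lama2, Lama5, Lamb1, Lamb2, Nid1 and Nid2 from E12.5 to W4 in CapFb1a, CapFb4, MedFb1b, EnC, VSM and Pc, as UMI CPM + 1 on a log axis, with points for libraries and lines for means. Lamb2 is higher at W4 than at P0 in all 6 subtypes, Nid1 reaches 3381 and 3204 CPM in CapFb4 at W4, and Nid2 declines after E16.5 in EnC to 46.7 and 53.4 CPM.

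Among the α chains, Lama2 rose in every fibroblast subtype. In CapFb1a its libraries were at 21.9 CPM at E12.5, 37.7 at E13.5, 175.2 and 172.4 at E16.5, 284 and 322 at P0 and 600 and 550 at W4. Each age lay above the one before it. It was called up from P0 to W4 in 11 of 11 fibroblast subtypes, with log2 fold changes from 0.45 to 2.06 (SE 0.239, adjusted p = 0.00119, in CapFb3) and a median of 0.97. In EnVL it went from 19.5 and 15.4 CPM to 0 and 6.03 and was called down by 2.75 (SE 0.78, adjusted p = 0.0336), at levels close to background. Lama4 rose in 6 of 11 fibroblast subtypes, in MedFb1b from 221 and 227 CPM to 368 and 333, by 0.61 (SE 0.08, adjusted p = 1.97e-05). It fell in Pc by 0.40 (SE 0.107, adjusted p = 0.0137) and in EnVL by 0.87 (SE 0.198, adjusted p = 0.0114).

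From P0 to W4 Lama5 was called up in EnC and EnVL and not in EnA, Pc, VSM or Pr, the other subtypes in which it could be tested. In EnC it was at 1.12 CPM at E12.5, 1.98 at E13.5, 8.29 and 9.02 at E16.5, 23.5 and 29.2 at P0 and 63.0 and 63.8 at W4. From P0 to W4 this was a rise of 1.21 (SE 0.182, adjusted p = 0.00215), and in EnVL the rise was 1.49 (SE 0.268, adjusted p = 0.00313). In VSM it had reached 72.6 and 86.6 CPM by P0 and stood at 97.3 and 104 CPM at W4, a difference of 0.28 (SE 0.159, adjusted p = 0.229). Lama3 rose in EnC by 1.66 (SE 0.467, adjusted p = 0.034), from 3.26 and 5.61 CPM to 13.7 and 15.95, and Lamb3 rose in MedFb1b by 2.48 (SE 0.477, adjusted p = 0.000601) and in MedFb2a by 2.41 (SE 0.372, adjusted p = 0.000183), all from a few CPM.

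The γ chain gene Lamc1 rose in 10 of 11 fibroblast subtypes and in Pr, and was not called in any endothelial or mural subtype. In CapFb4 it was at 127.3 and 148.4 CPM at E16.5, no higher than 199 at P0 and 627 and 608 at W4, a rise of 1.78 after P0 (SE 0.095, adjusted p = 2.23e-12). The estimate in EnC was -0.10 (SE 0.123) and in Pc 0.02 (SE 0.085).

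The nidogens went opposite ways in fibroblasts. Nid1 in CapFb4 was at 89.5 CPM at E12.5, 275 at E13.5, 949 and 1034 at E16.5, 1329 and 1406 at P0 and 3381 and 3204 at W4. It rose from P0 to W4 in 10 of 11 fibroblast subtypes, by 1.35 (SE 0.065, adjusted p = 3.29e-13) in CapFb4, and fell in the remaining one, MedFb2a, by 0.31 (SE 0.101, adjusted p = 0.0231). Nid2 in CapFb1b was at 65.8 CPM at E12.5, 189.4 at E13.5, 433 and 432 at E16.5, 435 and 422 at P0 and 269 and 230 at W4. Both W4 libraries were below those of E16.5 and P0 and above those of E12.5 and E13.5. Nid2 was called down in 15 of 17 subtypes, all but CapFb2a and CapFb3, with a median of -0.80 over the 17. In EnC it fell by 1.69 (SE 0.137, adjusted p = 0.000126), from 145 and 166 CPM to 46.7 and 53.4.

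From E16.5 to P0, a comparison that shares the P0 libraries with the one above, 53 tests of the 10 genes were called over all subtypes, 43 up and 10 down, where 14.2% of all gene tests were called. They were 32 of 81 in fibroblasts, where 16425 of 122056 tests of all genes were called, 10 of 25 in endothelium, beside 17.5% of all tests, 7 of 17 in Pc and VSM, beside 15.3%, and 4 of 9 in Pr, beside 12.6%. The difference between the intervals was not tested. Lamb2 was called up in EnA, EnC, EnVL, Pc, VSM and Pr and in 0 of 11 fibroblast subtypes, where 10 of 11 estimates were above 0. Lama5 rose by 1.49 (SE 0.193, adjusted p = 0.00188) in EnC, by 1.86 (SE 0.416, adjusted p = 0.00913) in Pc and by 1.01 (SE 0.164, adjusted p = 0.00959) in VSM. Nid2 fell in 8 of 17 subtypes, most in EnA by 2.03 (SE 0.295, adjusted p = 0.00173), from 257 and 212 CPM to 54.4 and 65.4. The total of 53 dropped to 24 without E16.5 replicate 1 and to 31 without E16.5 replicate 2.

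The sorted bulk populations gave the same genes with 6 libraries a group, as read counts per gene. Whether reads covered whole transcripts is not given in the sources used here. In bulk RNA, fewer cells of a type and less RNA per cell cannot be told apart. Values are CPM over reads in genes. A W4 gp38+CD26+ library with 25702 reads in genes was left out; the others held 5785352 to 15852166. CD31+ P0 replicate 1 stood apart, with 11520 genes detected and 0.246 CPM of Lamb2, and the tests of P0 CD31+ are also given without it. W4 mTEC replicate 3 stood apart as well, with 12758 genes detected against 16323 to 18710 in the other 5, 0 reads of Lama4, Lamb2, Lamc1 and Nid2 and 0.346 CPM of Lamb3, and the tests of W4 mTEC are also given without it. The labels do not say which bulk libraries came from the same mouse, so p-values between populations take them as independent. The label numbers repeat in steps of 12 from population to population. Calls between populations that were lost with the place in these numbers as a block are named below.

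Before age is considered, the populations differed in their α chains. At P0 CD31+ endothelium differed from the other nonepithelial populations in 7 of 10 genes, 2 higher and 5 lower, where 31.8% of all genes were called. Lama5 ranged over 0, 29.9 and 55.2 CPM (lowest, median, highest) in CD31+ and stayed at or below 6.40 CPM in every gp38+ library of either age. Against the mean of the 3 other populations it was higher in CD31+ by 3.26 (SE 0.97, adjusted p = 0.0115) at P0 and by 3.55 (SE 0.718, adjusted p = 0.00047) at W4, when 9 of 10 genes differed, 2 higher and 7 lower, beside 32.2% of all genes. One of those 3 populations, Ly51+gp38-, had a Lama5 median of 29.8 CPM at P0 and 111 CPM at W4, beside 29.9 and 70.9 CPM in CD31+. Lama2 was at 0 reads in 6 of 6 W4 CD31+ libraries and at a mean of 145 CPM in the other populations, at least 3670-fold lower against a floor of 3 reads over the group. Lamb3 was also at 0 in all 6 CD31+ libraries of each age, at least 58.5-fold lower at P0. That bound is set against a mean of 2.5 CPM, near the floor. At P0 Lamb3 was also at 0 in 2 of 6 Ly51+gp38-, 3 of 6 gp38+CD26- and 1 of 6 gp38+CD26+ libraries. Without CD31+ P0 replicate 1, Nid2 lost its P0 call (adjusted p = 0.123), as it did in 1 fit over all 14 groups (adjusted p = 0.411), and Lama5 differed by 3.52 (SE 0.889, adjusted p = 0.00371).

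Ly51+gp38- cells, the population with the mural markers, were set against the mean of both gp38+ populations. At P0, 4 of 10 genes differed, beside 13.4% of all genes: Lama3 and Lama5 higher, Nid1 and Nid2 lower. Without CD31+ P0 replicate 1, Lamb1 (-0.79, adjusted p = 0.0124) and Lamc1 (-0.54, adjusted p = 0.0407) were called too, and in 1 fit over all 14 groups Nid1 (adjusted p = 0.338) and Nid2 (adjusted p = 0.068) were not. At W4, 8 of 10 differed, beside 25.2%, with Lama3, Lama5 and Lamb2 higher and Lama2, Lama4, Lamb1, Nid1 and Nid2 lower. Lama3 was near the floor, at 0 reads in 3 of 6 W4 Ly51+gp38- libraries, with a median of 0.58 and a highest of 12.6 CPM. It was at 0 in 5 of 6 W4 gp38+CD26- and all 5 gp38+CD26+ libraries. Lama5 was at 63.6, 111 and 169 CPM (lowest, median, highest) in W4 Ly51+gp38- libraries, none of which overlapped a gp38+ library, a difference of 6.26 (SE 0.921, adjusted p = 1.88e-05). Lamb1 differed by -2.31 (SE 0.23, adjusted p = 7.76e-08) and Lamb2 by 1.52 (SE 0.166, adjusted p = 2.87e-07). In 1 fit over all 14 groups Lama4 (adjusted p = 0.118) and Nid2 (adjusted p = 0.0623) lost their W4 call.

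The gp38+ populations differed from each other in Lama3 alone at P0, beside 2.14% of all genes called. This call was lost with the place in the label numbers as a block. Lama3 was at 0 reads in all 6 gp38+CD26+ libraries, against a mean of 2.78 CPM in gp38+CD26-, where 2 of 6 libraries were also at 0. At W4, 3 of 10 genes were called, all higher in gp38+CD26+, beside 7.81% of all genes. They were Nid1 by 2.16 (SE 0.212, adjusted p = 3.12e-07), Lamb2 by 1.49 (SE 0.204, adjusted p = 2.91e-05) and Lamc1 by 0.71 (SE 0.2, adjusted p = 0.0298). Summed marker genes at W4 had medians of 3630 CPM for mesothelium in the CD26+ libraries against 1.49 CPM in the CD26- ones, 79.9 against 11.9 CPM for epithelium and 33.7 against 1580 CPM for pericytes, and their part was not tested. Lamc1 lost its call without W4 replicate 3, 5 or 6, with the shallow library kept and with the place in the label numbers as a block. In 1 fit over all 14 groups Nid1 alone was called, with Lamb2 at an adjusted p of 0.135.

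With age 7 of 10 genes were called in the Ly51+gp38- population, beside 11.9% of all genes. In 1 fit over all 14 groups 4 were called, Lamb2, Lamb1, Nid1 and Nid2, and Lama5 was not (2.04, adjusted p = 0.294). Lamb2 ran from 124.2, 180.1 and 229 CPM (lowest, median, highest) at P0 to 554, 623 and 759 CPM at W4, and the groups did not overlap. It rose by 2.001 (SE 0.18, adjusted p = 8.15e-06). Lama5 rose by 1.98 (SE 0.277, adjusted p = 0.000307), from 22.1, 29.8 and 40.0 CPM to 63.6, 111 and 169, again without overlap. The remaining 5 called genes fell. Lamb1 went from 351, 435 and 543 CPM to between 50.7 and 165.4 CPM, a fall of 1.76 (SE 0.241, adjusted p = 0.00026) with no overlap. Nid1 fell by 1.46 (SE 0.173, adjusted p = 8.46e-05), Nid2 by 1.65 (SE 0.208, adjusted p = 0.000137), Lama4 by 0.97 (SE 0.25, adjusted p = 0.0196) and Lama2 by 0.84 (SE 0.243, adjusted p = 0.036). Lamc1, the γ chain, differed by 0.17 with a 95% interval from -0.26 to 0.61. The median change of the 10 genes was -0.91, beside -0.05 for all genes tested.

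The mural markers moved in the same libraries. The summed smooth muscle genes Acta2 and Myh11 ran from 1200, 1540 and 2100 CPM (lowest, median, highest) at P0 to 4680, 5520 and 6180 CPM at W4, and the summed pericyte genes Kcnj8 and Rgs5 from 28600, 33800 and 39300 to 83200, 93700 and 107000 CPM. The 3 fibroblast markers summed to a median of 2910 CPM at P0 and 1730 CPM at W4, and the 6 epithelial ones to 34.6 CPM at P0 and a range from 44.9 to 444 CPM at W4, with Aire at 0 at both ages. The erythroid markers summed to 0.868 CPM or less at P0 and to as much as 371 CPM at W4. Median sums went from 6.96 to 76.1 CPM for the haematopoietic markers and from 0.545 to 17.2 CPM for the endothelial ones. The part of these shifts in the Ly51+gp38- results was not tested. Within single-cell subtypes, Lamb2 rose in both VSM and Pc, whereas Lama5 was not called in either from P0 to W4. Lama2, down in bulk, had estimates of 0.434 and 0.837 over these 2 mural subtypes and was called up in 1. Of the other genes down in bulk, Lama4, Lamb1 and Nid1 were each called down in 1 of the 2, and Nid2 in both.

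**Figure D3:**
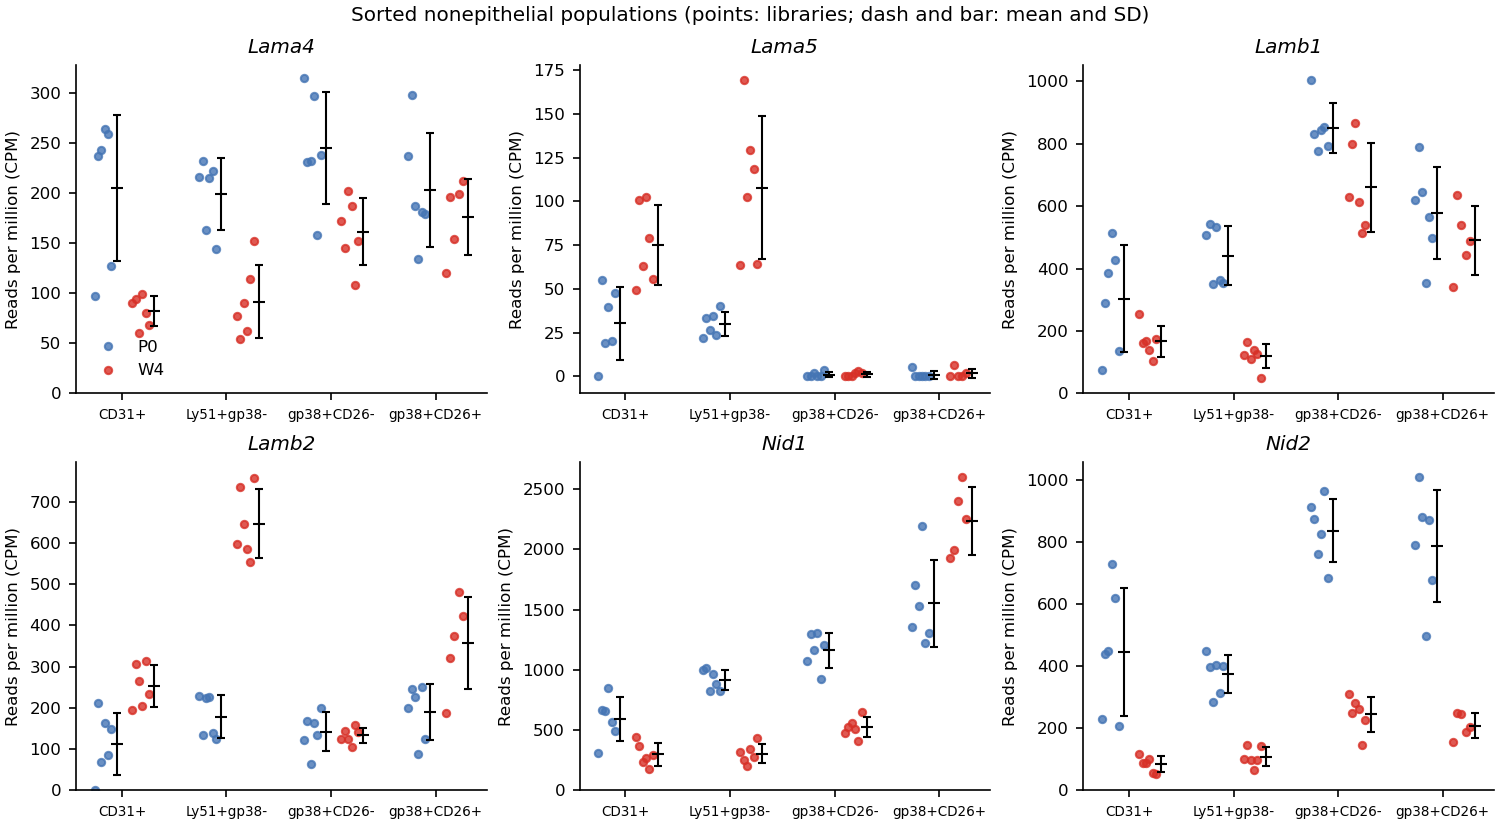
CPM of Lama4, Lama5, Lamb1, Lamb2, Nid1 and Nid2 in each bulk library of the 4 nonepithelial populations at P0 (blue) and W4 (red), with bars for mean and SD. In Ly51+gp38- the W4 points of Lamb2 (554 to 759 CPM) lie above all P0 points and those of Lamb1 (50.7 to 165.4 CPM) below them, and in gp38+CD26+ Nid1 is at 1224 CPM or more at both ages.

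Per kb of exon, the share of Lamb2 among the β chains differed between the ages. Lamb2 made up 28.7, 39.4 and 50.5% (lowest, median, highest) of the β chain reads per kb in P0 Ly51+gp38- libraries and 86.3, 87.8 and 96.1% at W4, so the groups were apart. In CD31+ the range went from 0.536, 29.5 and 64.0% to 55.7, 71.2 and 83.3%, with overlap, and without P0 replicate 1 it began at 22.4, 34.2 and 64.0%. In gp38+CD26- it stayed near its start, at 11.4, 22.1 and 29.1% and then at a lowest of 18.5% and a median of 23.2%. In gp38+CD26+ it went from 28.6, 33.98 and 41.7% to 44.6, 52.6 and 63.1% without overlap. The leading α chain per kb in Ly51+gp38- was Lama4 at P0 (61.04% of the α chain sum). At W4 Lama5 (45.5%, SD 12.8, n = 6) and Lama4 (37.5%, SD 14.1) lay within their spread there. In CD31+ it was Lama4 at P0 (82.2%, with Lama5 at 12.3%, and 80.8% and 14.8% without replicate 1), and at W4 Lama4 (49.6%, SD 6.99, n = 6) and Lama5 (46.8%, SD 6.82) lay within their spread.

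**Figure D4:**
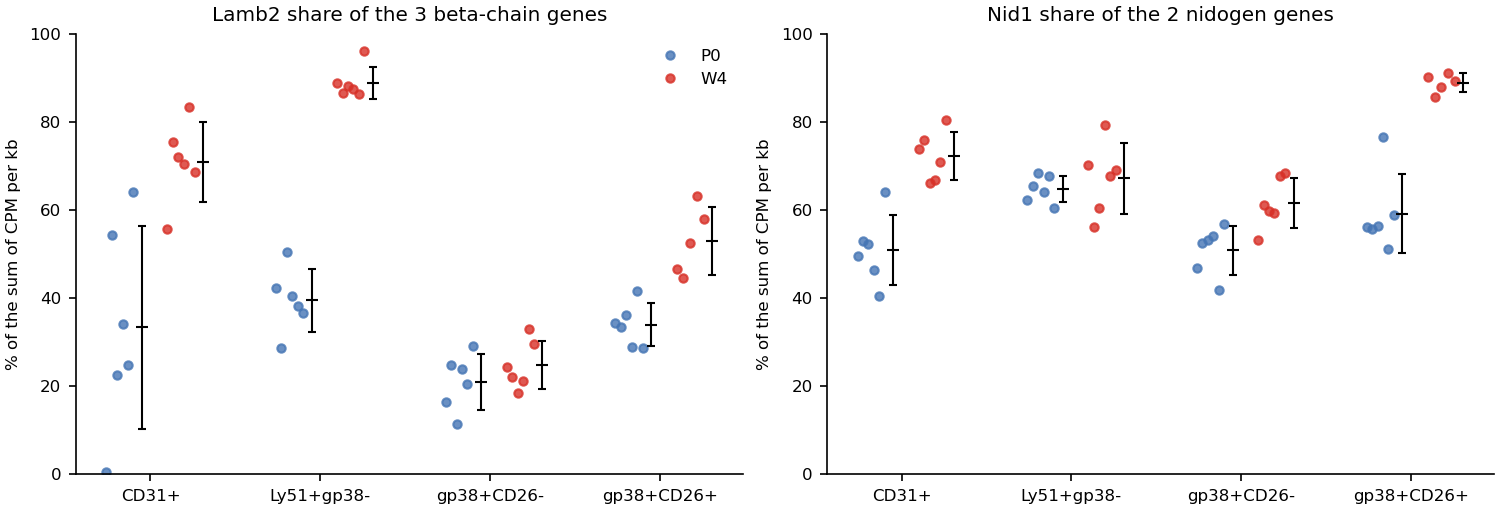
Share of Lamb2 in the β chain reads per kb of exon, and share of Nid1 in the nidogen reads per kb, both in percent, for each bulk library of the nonepithelial populations at P0 and W4. Lamb2 is at 86.3% or more in all W4 Ly51+gp38- libraries, and Nid1 at 85.6% or more in all W4 gp38+CD26+ libraries.

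In CD31+ endothelium 2 of 8 genes tested changed with age, both down, beside 5.09% of all genes. Nid2 went from 207, 445 and 730 CPM to 53.6, 87.8 and 117 CPM without overlap, a fall of 2.35 (SE 0.335, adjusted p = 0.000776). Lama4 fell by 1.23 (SE 0.266, adjusted p = 0.0149), from 96.8, 241 and 264 CPM to 60.4, 85.6 and 99.0, and here the lowest P0 library overlapped the W4 group and the call was lost in 1 fit over all 14 groups (adjusted p = 0.134). Lamb2 had P0 values of 0.246, 117 and 211 CPM and W4 values of 195, 249 and 314 CPM, a difference of 1.26 (SE 0.73, adjusted p = 0.416). Without CD31+ P0 replicate 1, 5 of the 8 genes were called: Lamb2 rose by 0.998 (SE 0.272, adjusted p = 0.0452), Lamc1 fell by 0.92 (SE 0.246, adjusted p = 0.0416), Nid1 fell by 1.05 (SE 0.221, adjusted p = 0.0114), Nid2 fell by 2.49 (SE 0.309, adjusted p = 0.000286) and Lama4 fell by 1.38 (SE 0.212, adjusted p = 0.00135). The pericyte markers summed to a median of 60.8 CPM in P0 CD31+ libraries and 1160 CPM at W4, and the erythroid ones to 20.2 and 2040 CPM; their part was not tested.

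Both nidogens fell with age in gp38+CD26- cells, the only 2 of 8 genes called there, beside 24.3% of all genes. Nid1 went from 927, 1186 and 1302 CPM to 405, 520 and 650, a fall of 1.02 (SE 0.13, adjusted p = 5.35e-05). Nid2 went from 686, 850 and 964 CPM to 144.2, 256 and 309, a fall of 1.64 (SE 0.157, adjusted p = 4.48e-06). Neither gene's groups overlapped. In 1 fit over all 14 groups Nid1 lost its call (adjusted p = 0.184), and DESeq2 called 3 genes, all down. Between the same libraries the erythroid markers went from a median sum of 0.133 to 1790 CPM, the mesothelial ones from 34.3 to 1.49 CPM and the haematopoietic ones from 20.1 to 1.93 CPM, and their part was not tested. Nid1, down here, was called up in 10 of 11 single-cell fibroblast subtypes. Lama2, the chain that rose in all 11 single-cell fibroblast subtypes, had a bulk estimate of -0.35 (adjusted p = 0.209) in gp38+CD26- and of -0.42 (adjusted p = 0.241) in gp38+CD26+. Lamb2, Lamc1, Lamb1 and Lama4, called up in 11, 10, 6 and 6 of 11 single-cell fibroblast subtypes, were not called in gp38+CD26-. The medians of Lamb2 and Lamc1 there went from 148.9 to 133.0 and from 281.8 to 226.5 CPM. Those of Lamb1 and Lama4 went from 838.0 to 621.0 and from 235.2 to 162.2 CPM. Lamb3 went the other way, from a median of 1.55 to 11.4 CPM. The reason for these differences between the data sets was not tested.

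In gp38+CD26+ cells 3 of 8 genes were called, beside 13.2% of all genes. Nid2 went from 499, 830 and 1011 CPM to 154.8, 202 and 249, without overlap, a fall of 1.81 (SE 0.192, adjusted p = 5.86e-05). Nid1 went from 1224, 1443 and 2196 CPM to 1925, 2252 and 2604, with 1 P0 library inside the W4 range, a rise of 0.62 (SE 0.176, adjusted p = 0.0348). Lamb2 went from 88.1, 213 and 251 CPM to 187.1, 374 and 481, a rise of 1.03 (SE 0.297, adjusted p = 0.0377) with overlapping groups. Both rises lost their call without W4 replicate 4, 5 or 6 and with the shallow library kept, and in 1 fit over all 14 groups (adjusted p = 0.451 for Nid1 and 0.272 for Lamb2), Lamb2 also without replicate 3 and Nid1 also with the title prefix as a term. The mesothelial genes Upk3b and Msln summed to 0, 49.2 and 306 CPM in P0 gp38+CD26+ libraries and to 397, 3630 and 4860 CPM at W4. Median sums went from 0.31 to 1530 CPM for the erythroid markers and from 3.23 to 79.9 CPM for the epithelial ones. In the single-cell mesothelium at W4, Nid1 was at 121 and 159 CPM and Lamb2 at 94.3 and 106 CPM. The part of these other cells in the changes was not tested.

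The difference between the gp38+ populations in their change of Nid1 was tested directly, and 1 of 9 genes was called, beside 4.99% of all genes. It was Nid1, at 1.65 (SE 0.221, 95% interval 1.19 to 2.11, adjusted p = 9.81e-05) for the change in gp38+CD26+ minus that in gp38+CD26-. The call held without each W4 gp38+CD26+ library in turn. It was lost in 1 fit over all 14 groups and with the shallow library kept. Nid1 made up 51.2, 56.3 and 76.6% of the nidogen reads per kb in P0 gp38+CD26+ libraries and 85.6, 89.2 and 91.1% at W4. The nidogen sum there was 376 ± 46.6 CPM per kb at P0 and 362 ± 42.4 at W4 (SD, n = 6 and 5).

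Per kb of exon, Lama3 was the leading α chain of cTEC, P0 mTEC and mTEClo, and Lamb3 the leading β chain of cTEC. Per kb, Lama3 held 82.3% of the α chain sum in P0 cTEC, 83.8% in W4 cTEC, 69.6% in P0 mTEC and 91.4% in mTEClo. Lamb3 held 57.4% and 61.7% of the β sum in P0 and W4 cTEC. Its lead at P0 rests on the division by exon length. Undivided means were 281.0 CPM for Lamb3 and 290.7 for Lamb1 in P0 cTEC, and 220.4 and 178.9 in W4 cTEC. In mTEClo Lamb3 held 56.6% (SD 17.6, n = 6, lowest 27.0%) and Lamb1 30.2% (SD 17.1, highest 59.8%), so their ranges overlapped. The ranges overlapped in P0 mTEC too, with Lamb3 at 46.7% (SD 5.71) and Lamb1 at 37.2% (SD 7.71). In mTEChi Lama3 held 37.8% (SD 17.3, n = 6) beside 35.0% (SD 13.3) for Lama4, and in W4 mTEC Lamb3 held 47.2% (SD 27.9, n = 6) beside 38.4% (SD 31.2) for Lamb1, both within their spread. Without W4 mTEC replicate 3 these were 56.1% (SD 19.5, n = 5) for Lamb3 and 26.6% (SD 13.1) for Lamb1. At P0 cTEC and mTEC differed in 7 of 10 genes, 5 higher and 2 lower in cTEC, beside 43.5% of all genes. In 1 fit over all 14 groups 3 were called, Lamb1, Lamc1 and Lama2, with Lama3 at an adjusted p of 0.137 and Lamb3 at 0.0665. Lama3 was at 176, 268 and 352 CPM in cTEC and 42.6, 71.5 and 91.1 CPM in mTEC, apart in every library, a difference of 1.86 (SE 0.2, adjusted p = 3.21e-06). Lamb3, its partner, was at 176, 300 and 329 CPM against 27.8, 50.5 and 100.9 CPM, a difference of 2.25 (SE 0.26, adjusted p = 6.19e-06). Lamb1 differed by 2.07 (SE 0.228, adjusted p = 3.92e-06) and Lamc1 by 2.05 (SE 0.248, adjusted p = 9.51e-06). Median marker sums in P0 cTEC and mTEC were 67.7 and 2450 CPM for pericyte and 0 and 916 CPM for mesothelial genes. Their part was not tested.

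At W4 3 of 9 genes differed between cTEC and mTEC, all higher in cTEC, beside 25.2% of all genes. They were Lama3 by 1.98 (SE 0.332, adjusted p = 0.000587), Lamb1 by 2.14 (SE 0.383, adjusted p = 0.000957) and Lamb3 by 2.11 (SE 0.665, adjusted p = 0.0327), while Lamc1 had 2.71 (adjusted p = 0.0628). Without W4 mTEC replicate 3 the count was 4 of 9, with Lamc1 at 2.46 (SE 0.81, adjusted p = 0.0369) and Lamb3 at 1.85 (SE 0.286, adjusted p = 0.000378). In 1 fit over all 14 groups Lama3 (adjusted p = 0.116) and Lamb3 (adjusted p = 0.0907) lost this call. Lamb3 also lost it with the place in the label numbers as a block. Median marker sums in W4 cTEC and mTEC were 509 and 7.51 CPM for haematopoietic and 220 and 2070 CPM for pericyte genes. Their part was not tested. Within the medulla, mTEChi differed from mTEClo in 4 of 10 genes, all lower, beside 16.4% of all genes. The call was 3 genes (1 higher, 2 lower) with the label prefix as a term, 7 (3 higher, 4 lower) in 1 fit over all 14 groups and 5 (1 higher, 4 lower) by DESeq2. Lama3 was at 10.7, 17.8 and 38.0 CPM in mTEChi and 91.2, 162 and 263 CPM in mTEClo without overlap, a difference of -2.79 (SE 0.346, adjusted p = 0.000148). Lamb3 differed by -2.23 (SE 0.377, adjusted p = 0.000914), Lamb1 by -1.998 (SE 0.553, adjusted p = 0.0241) and Lamc1 by -1.64 (SE 0.499, adjusted p = 0.0393).

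With age cTEC changed in 3 of 9 genes, all down, beside 22.3% of all genes, and in 0 of 10 in 1 fit over all 14 groups. Lama4 fell by 1.05 (SE 0.291, adjusted p = 0.0191), Nid2 by 0.93 (SE 0.232, adjusted p = 0.0107) and Lamb1 by 0.64 (SE 0.183, adjusted p = 0.022), the last from 234, 305 and 343 CPM to 125.4, 179.9 and 237 where the highest W4 library lay above the 2 lowest P0 libraries. In the same libraries the blood cell genes Ptprc, Cd3e and Rag1 summed to a median of 11.4 CPM at P0 and 509 CPM at W4, and the fibroblast genes to 50.1 and 630 CPM, and their part was not tested. In mTEC edgeR called 0 of 10 genes, beside 5.99% of all genes, with 0 at an unadjusted p under 0.05 and 0 by DESeq2. The change with age differed between cTEC and mTEC in 0 of 10 genes by edgeR and by DESeq2, beside 5.52% of all genes, again with 0 at an unadjusted p under 0.05. Without W4 mTEC replicate 3 both counts by edgeR were also 0 of 10, with lowest adjusted p values of 0.0647 for Nid2 in mTEC and 0.0657 for Lama4 in the difference between cTEC and mTEC.

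The newborn series placed the same epithelial genes by label, given here as means over the libraries of both genotypes together. Lama3 averaged 102 CPM in PcTEC (perinatal cortical), 114 in McTEC (mature cortical), 121 in ItTEC (intertypical) and 51.0 in proliferating PrTEC, but 23.9 in MmTEC (mature medullary), close to the 21.6 CPM in thymocytes (Thy), which should lack it. Lamb3 averaged 119.8, 148.3 and 109.6 CPM in PcTEC, McTEC and ItTEC, 13.97 in MmTEC and 32.2 in Thy, so its MmTEC level lay below the thymocyte background. Nid1 had means from 35.2 CPM in McTEC to 62.4 in ItTEC over PcTEC, McTEC, ItTEC, MmTEC and PrTEC. All of these lay below the 99.2 CPM in Thy, so they give no epithelial pattern above background. It was at 397 CPM in nTEC, the label with fibroblast genes. The median depth was 2551, 2391 and 2506 UMIs a cell in the Tbx1+/-Crkl+/- libraries and 2577, 3631 and 4686 in the wild-type ones. Every mutant library was thus shallower than every wild-type one. The cells of both genotypes had been fixed in RNAprotect reagent after sorting. In all, 44 barcodes occurred in more than 1 library.

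**Figure D5:**
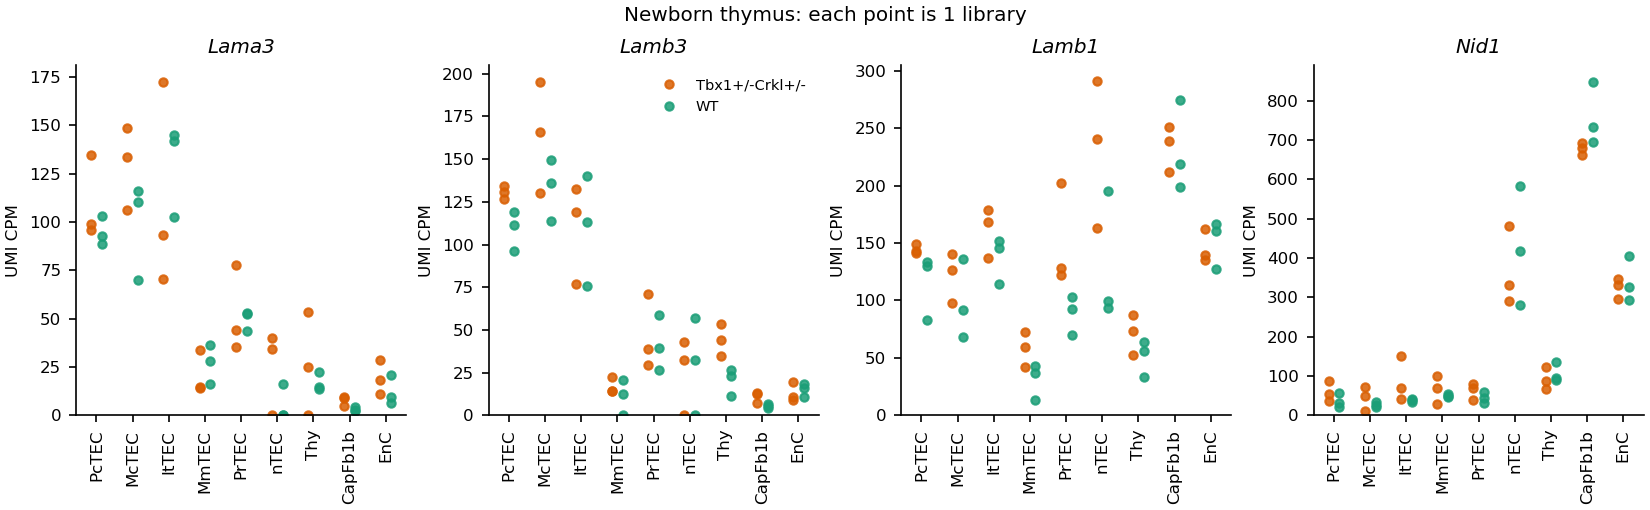
UMI CPM of Lama3, Lamb3, Lamb1 and Nid1 in each newborn library for 6 epithelial labels, Thy, CapFb1b and EnC, coloured by genotype. Lama3 and Lamb3 stand highest in PcTEC, McTEC and ItTEC, Nid1 in CapFb1b (662 to 848 CPM), and Lama3 in PcTEC overlaps between the genotypes.

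Between Tbx1+/-Crkl+/- and wild-type mice, edgeR called 0 tests of the 10 genes over 18 labels, DESeq2 also 0, and 10 had an unadjusted p under 0.05. They were 8 of 37 tests in the 5 TEC labels, where 7.36% of all gene tests had such a p, 1 of 46 in fibroblasts beside 7.15%, 1 of 17 in Pc and VSM beside 5.32% and 0 of 12 in endothelium beside 3.65%, with none in Pr or Thy. All gene tests were called at 0.0456% in the 5 TEC labels, 0.0331% in fibroblasts, 0.01% in endothelium, 0.0606% in Pc and VSM, 0.0411% in Pr and 0.276% in Thy. Lama3 in PcTEC was at 96.0, 99.1 and 134.9 CPM in Tbx1+/-Crkl+/- libraries and at 92.7, 103.1 and 88.5 in wild type, overlapping. Lamb3 in PcTEC was at 126.6, 130.7 and 134.1 CPM against 96.5, 119.2 and 111.5, with the mutant libraries higher in all 3, a difference that was not called. The part of the lower depth of the mutant libraries in these genotype comparisons was not tested. Nid1 in ItTEC was at 42.4, 151.4 and 68.2 CPM against 37.8, 33.9 and 40.7, with a log2 difference of 1.47 (SE 0.417, adjusted p = 1.0). Over the ItTEC libraries the fibroblast genes Col1a1 and Dcn ranged from 67.9 to 810 CPM and from 280 to 982 CPM, and their part was not tested. The 95% intervals of these differences reached from -1.08 to 2.37 at their outermost ends over all tests.

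The other genes of the basement membrane moved beside the 10. Of 20 listed genes (collagens IV, perlecan Hspg2, agrin Agrn and others), 164 of 250 single-cell tests were called from P0 to W4, 123 up and 41 down, beside 30.3% of all gene tests. In MedFb1b the calcium-binding matrix gene Smoc2 rose by 5.10 and the netrin Ntn4 by 5.31, while in EnC Col18a1 fell by 3.06. Of 13 laminin receptors, 60.7% of 178 tests were called in that interval, 70 up and 38 down. From E16.5 to P0 the counts were 90 of 250 and 50 of 178, beside 14.2% of all gene tests, and between the newborn genotypes 0 in both lists.

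In bulk Ly51+gp38- cells 5 of 14 basement membrane genes changed with age, 3 up and 2 down, beside 11.9% of all genes, among them Col4a5 (1.84, SE 0.255, adjusted p = 0.000293) and Col18a1 (1.45, SE 0.229, adjusted p = 0.000731). Of the receptors 6 of 11 changed, 4 up and 2 down: the Lutheran laminin receptor Bcam, which binds the laminin α5 chain, rose by 1.54, and integrin Itga6 fell by 2.08. In CD31+ cells, where 5.09% of all genes were called, 1 of 10 basement membrane genes fell, Col18a1 by 2.64 (adjusted p = 0.00215), and 2 of 12 receptors rose, Itga1 by 1.42 and Bcam by 1.11.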

How the data were processed

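Single-cell libraries were made from sorted stromal cells and bulk libraries from sorted populations. The deposited single-cell matrices hold whole UMI counts per gene and cell, made by the authors with Cell Ranger 3.1.0, and cell labels were the authors' own. The deposited bulk table holds whole read counts per gene, made by the authors with STAR 2.5.3a and HTSeq on mm10; whether strand was used is not given in the sources used here, and overlapping genes cannot then be told apart. Of 39179 bulk identifiers 37607 had a symbol.

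UMIs were summed per library and label where every library had at least 20 cells, which left 17 subtypes and 18 newborn labels. Doublets were treated as in the deposited labels. Counts were tested with edgeR 4.0.16 (R 4.3.3; quasi-likelihood test, filterByExpr, TMM factors, Benjamini-Hochberg adjustment over all genes, threshold 0.05), with limma 3.58.1 loaded by it and DESeq2 1.42.0 as an alternative. CPM values used raw gene-count totals. Levels and figures used Python 3.11.15 with numpy 2.4.6, pandas 2.3.3 and scipy 1.17.1. The tests were checked on simulated data, with a fixed large fold planted in genes of higher level. These changes were recovered with each gene given its own spread, whereas few were in bulk when every gene was given the common spread. Smaller changes and genes at low level were not part of the check.

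The median depth was 10000 to 14030 UMIs a cell in the age series and 2391 to 4686 in the newborn series, and bulk libraries under 1e+06 counts in genes were left out. In bulk, 7.81 to 16.6% of reads fell in no gene and stayed out of library sizes. Floors cover counting error only. Named genes were the 10 members and, for each list and comparison, the 2 called genes with the largest change. The members and lists were chosen with earlier results of these data known. Results for 1 of the gene lists are not reported here.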

Additional observations from a re-analysis of the deposited data

Results flagged for a closer look

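In groups of bulk libraries (member genes with a mean of at least 5 CPM) the gap of the highest or lowest library to its neighbour was set against the group's range, and 6 groups, 5.04% of those examined, passed Dixon's 95% value, where chance gives about 1 in 20. Lama2 was at 68.0 CPM in P0 Ly51+gp38- replicate 5, with the nearest library at 107.9, and at 19.69 CPM in W4 mTEChi replicate 1, with the nearest at 7.36. Lama4 was at 37.98 CPM in P0 mTEC replicate 4, with the nearest at 22.9. Lamb1 was at 1004 CPM in P0 gp38+CD26- replicate 1, with the nearest at 854. Lamb2 was at 46.8 CPM in W4 mTEC replicate 5, with the nearest at 14.9. Nid1 was at 48.91 CPM in W4 cTEC replicate 6, with the nearest at 20.1. The change of Nid1 with age differed between gp38+CD26+ and gp38+CD26- cells by 1.65 on the log2 scale in a test of the difference itself.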

How the results depend on the processing

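None of the called differences of the 10 genes changed sign under any alternative run, and estimates that were not called were not followed. The 17 calls with age in bulk became 8 in 1 fit over all 14 groups, which kept 7 of the 17, and 15 to 20 under the others. The 46 calls between bulk populations ranged from 36 to 48. The 1 difference in the change with age became 0 in 1 fit over all 14 groups and 0 with the shallow library kept. The newborn count of 0 became 1 with no filter on low counts. The 53 calls from E16.5 to P0 ranged from 24 to 54 when 1 library was left out, with 24 and 31 without E16.5 replicate 1 or 2, and were 42 by DESeq2. The 87 calls from P0 to W4 ranged from 74 to 91, and from 74 to 82 when 1 library was left out. The first subtype was kept for 7 to 10 of 10 genes. Causes of these differences were not tested.

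With the replicate number as a block the single-cell counts were 54, 87 and 0, for E16.5 to P0, P0 to W4 and the newborn genotypes. Same-numbered libraries correlated at -0.183, 0.0259 and -0.221 in the age series and at 0.227, -0.0234 and -0.567 in the newborn series, where differently numbered ones reached 0.683 and 0.541. With 2 libraries an age, the crossed pairs of the age series have the same values with the sign turned, at 0.183, -0.0259 and 0.221. They can only choose between numberings and cannot show whether libraries are paired. Not every same-numbered pair was over 0.1, so the numbers were not taken to pair libraries. A shared litter or day was not tested. In bulk the label numbers repeat in steps of 12 from population to population. Libraries at the same place in 2 populations of an age correlated at a median of 0.0308 at P0 and 0.0152 at W4. Pairs at different places had medians of -0.00619 and -0.00239. Of the same-place pairs 2.22% and 1.24% were over 0.1, against 0% of the pairs at different places. Same-place libraries were thus slightly more alike, while the main tests took no pairs, so their p-values leave a shared source out. With that place as a block, a choice made after seeing the data, the 46 calls between populations became 42 and the difference in the change with age stayed at 1 call. Calls were lost for Lama3 between the gp38+ populations at P0 (adjusted p = 0.0922), Lamc1 between them at W4 (0.0645), Lamb3 between W4 cTEC and mTEC (0.084), and Lamb1 (0.108) and Lamc1 (0.146) between mTEChi and mTEClo. Whether such libraries share a mouse was not tested. With the P0 numbers crossed, a choice made after seeing the data, the counts were 54 and 86. Leaving out CD31+ P0 replicate 1, gp38+CD26+ P0 replicate 4 or mTEC W4 replicate 3 was also chosen after seeing the data and gave 20, 17 and 17 calls with age; the last gave 47 calls between populations. With 2 libraries an age, single-cell tests were limited by few libraries.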
